A study of Mus musculus with 24 samples.

Results

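The Hsd3b steroid dehydrogenase cluster of mouse chromosome 3 was examined in 4 liver H3K27ac peak lists. It holds 6 member genes, Hsd3b1 to Hsd3b6, of 22350 protein-coding genes on the autosomes and X. A peak was assigned to a member when it overlapped the gene body plus 10 kb on each side (mm9). Such peaks numbered 25 of 79862 in the B6 male list and 25 of 82181 in its female counterpart, and 19 of 90228 and 15 of 84645 in the CAST male and female lists. Over the 4 lists they merged into 30 regions, of 119348 genome-wide.

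H3K27ac, acetylation of histone H3 at lysine 27, marks active promoters and enhancers and was mapped by ChIP-seq in whole liver. The groups were male and female C57BL/6J (B6) mice and male and female CAST/EiJ (CAST) mice, inbred strains of different subspecies, with 5 livers a group, and 1 input control per group. All mice were 8 weeks old by the labels. The comparison of interest was male against female liver, and whether it comes out alike in both strains. Groups were taken from the sample titles, because a strain field of the labels gives the other strain for the B6 females and the CAST males. Each list pools its 5 livers, so no value below has an SD, no test between groups was possible, and all comparisons are between lists. In whole liver, fewer cells carrying the mark and less mark per cell cannot be told apart.

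The family encodes 3beta-hydroxysteroid dehydrogenases, which convert hydroxysteroids such as pregnenolone and dehydroepiandrosterone into ketosteroids, a step in making progesterone, androgens and corticosteroids. Hsd3b1 is the classical form of adrenal gland and gonads, and Hsd3b6 is known from placenta, skin and adrenal cortex. Hsd3b2 and Hsd3b3 are found in kidney and liver. Hsd3b4 and Hsd3b5 act in the opposite direction as ketosteroid reductases, and Hsd3b5 is a textbook male-biased gene of mouse liver that depends on pulsed growth hormone, which signals through STAT5.

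All members lie on the minus strand. In order along the chromosome they are Hsd3b4 (ENSMUSG00000056351.5) at chr3:98302998-98313958, Hsd3b5 (ENSMUSG00000038092.5) at chr3:98422559-98434232, Hsd3b2 (ENSMUSG00000063730.6) at chr3:98513178-98528499, Hsd3b3 (ENSMUSG00000062410.7) at chr3:98545399-98567051, Hsd3b6 (ENSMUSG00000027869.8) at chr3:98609427-98618366 and Hsd3b1 (ENSMUSG00000027871.10) at chr3:98656117-98663717. Their windows span 381 kb, and those of Hsd3b2 and Hsd3b3 overlap. The genes are close copies of each other. Coding sequences of 1122 bases were 95.1% identical between Hsd3b2 and Hsd3b3, 94.4% between Hsd3b2 and Hsd3b6, 90.02% between Hsd3b1 and Hsd3b6 and 95.2% between Hsd3b4 and Hsd3b5, and fell to 80.5% between Hsd3b2 and Hsd3b5. Hsd3b7, a bile acid enzyme named for the same family but encoded elsewhere, was at most 61.3% identical to any of them.

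The authors kept only reads that map to a single place, so the share of the reference that single reads can reach was measured first. Of all 50-base words (the read length) starting in the span, 58.3% occur once in mm9. In the gene bodies the share was 91.7% for Hsd3b6, 90.04% for Hsd3b5, 89.8% for Hsd3b1, 87.8% for Hsd3b2 and 73.6% for Hsd3b3. Hsd3b4 stood apart, with 0% of its gene body and 0.213% of its window. Its coding sequence was 100% identical to that of Gm10681, a protein-coding gene model at chr3:98356476-98367961, and 99.6% identical to that of Gm4450 at chr3:98249609-98260954. For 92.5% of the words of Hsd3b4, every other copy lay inside the cluster. The 50 bases before the Hsd3b4 start are shown because they make the limit visible; they occur 2 times in the genome, at chr3:98313959-98314008 and within the Gm10681 gene model at chr3:98367430-98367479.

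Hsd3b4, last 50 bases before the start: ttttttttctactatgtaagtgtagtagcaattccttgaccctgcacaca

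No single read from the Hsd3b4 gene body could therefore be placed uniquely. Its count of 0 peaks in all 4 lists is not a measurement of the gene. In a fragment with 2 sequenced ends, either end may be the unique one, so the shares describe single reads. They were computed on the B6 reference, whereas the reads of the CAST mice were first placed on a genome of that strain.

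The sequences that the results turn on are printed next, from the mm9 genome, in lower case, with matches to any of 7 liver factor motifs in capitals. The motifs, searched on both strands, were TTCNNNGAA (STAT5), ATCAAT (HNF6 and CUX2), ATCGAT (HNF6), TTGCNNAA (C/EBP), TGTTTAC (FOXA), AGGTCA (a nuclear receptor core, HNF4A among them) and GTTAAT (an HNF1 core). The first 4 are the 250 bases before the outermost start of Hsd3b5 (chr3:98434233-98434482), overlapped by a peak in all 4 lists, of Hsd3b2 (chr3:98528500-98528749), of Hsd3b6 (chr3:98618367-98618616), with no call, and of Hsd3b1 (chr3:98663718-98663967), with a call in B6 females only. They read along the minus strand. Over the Hsd3b2 stretch itself no B6 male peak lies, the nearest starting at chr3:98528899, and the B6 female peak at chr3:98528234-98528509 reaches only its edge, whereas peaks of both CAST lists overlap it. The other 2 are the 200 bases around the B6 male summits of the element 14.7 kb upstream of Hsd3b5 (chr3:98449017-98449216) and of an element inside Hsd3b2 (chr3:98524270-98524469), on the plus strand.
Hsd3b5 promoter: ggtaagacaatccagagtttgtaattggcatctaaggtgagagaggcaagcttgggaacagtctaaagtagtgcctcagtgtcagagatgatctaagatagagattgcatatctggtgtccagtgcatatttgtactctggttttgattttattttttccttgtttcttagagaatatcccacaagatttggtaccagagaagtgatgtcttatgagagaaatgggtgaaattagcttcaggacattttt
Hsd3b2 promoter: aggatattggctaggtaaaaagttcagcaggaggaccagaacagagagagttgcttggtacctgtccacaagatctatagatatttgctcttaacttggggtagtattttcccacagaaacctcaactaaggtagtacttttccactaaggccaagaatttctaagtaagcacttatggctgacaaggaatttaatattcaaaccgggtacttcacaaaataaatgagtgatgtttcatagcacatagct
Hsd3b6 promoter: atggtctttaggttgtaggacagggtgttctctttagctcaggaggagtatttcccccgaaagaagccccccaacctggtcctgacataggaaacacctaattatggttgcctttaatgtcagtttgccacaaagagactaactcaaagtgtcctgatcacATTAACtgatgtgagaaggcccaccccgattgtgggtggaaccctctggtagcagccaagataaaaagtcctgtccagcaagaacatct
Hsd3b1 promoter: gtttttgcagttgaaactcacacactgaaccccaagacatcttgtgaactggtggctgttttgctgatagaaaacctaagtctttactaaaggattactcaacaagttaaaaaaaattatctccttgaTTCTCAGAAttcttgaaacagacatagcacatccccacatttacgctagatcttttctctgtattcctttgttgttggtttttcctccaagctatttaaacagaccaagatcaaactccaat
Element upstream of Hsd3b5: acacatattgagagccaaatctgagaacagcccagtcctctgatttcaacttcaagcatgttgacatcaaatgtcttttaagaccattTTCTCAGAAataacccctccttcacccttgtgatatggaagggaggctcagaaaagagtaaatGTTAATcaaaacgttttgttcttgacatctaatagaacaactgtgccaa
Element inside Hsd3b2: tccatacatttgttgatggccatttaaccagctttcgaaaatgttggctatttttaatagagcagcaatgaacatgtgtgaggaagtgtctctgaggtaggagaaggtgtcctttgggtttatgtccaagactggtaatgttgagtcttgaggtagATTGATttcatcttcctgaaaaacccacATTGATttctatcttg

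None of the 7 motifs occurred in these windows of Hsd3b5 and Hsd3b2. The Hsd3b1 window held 1 STAT5 match, as did 6.83% of 22345 protein-coding promoters of the same length, and the Hsd3b6 window held 1 HNF1 core, as did 5.75%. The element upstream of Hsd3b5 held a STAT5 match beside the summit, found in 5.48% of the 200-base windows around 79818 B6 male summits, and an HNF1 core, found in 4.95%. The element inside Hsd3b2 held 2 matches to ATCAAT, and 4.64% of summit windows held at least 1. A match is a string of letters and does not show binding.

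The 6 members divided into 3 marked genes, 2 genes without a call and 1 gene called in a single list. At least 500 bp were covered in either sex at 4 members in B6 and 3 in CAST. Of all 22350 protein-coding windows, 15931 in B6 and 16090 in CAST reached that limit. Hsd3b5, Hsd3b2 and Hsd3b3 carried peaks in every list. Hsd3b3, a dehydrogenase, had the most, with 7352 bp covered in males and 7329 bp in females of B6, and 6905 bp and 4618 bp in CAST. Hsd3b5, the male-biased reductase, had 4939 bp in males and 3841 bp in females of B6, and 4038 bp and 2885 bp in CAST. For Hsd3b2, a dehydrogenase, the values were 4843 bp and 3424 bp in B6, and 2359 bp and 1207 bp in CAST. The CAST female list was the lowest of the 4 at each of these genes, and the B6 male list the highest.

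**Figure D1:**
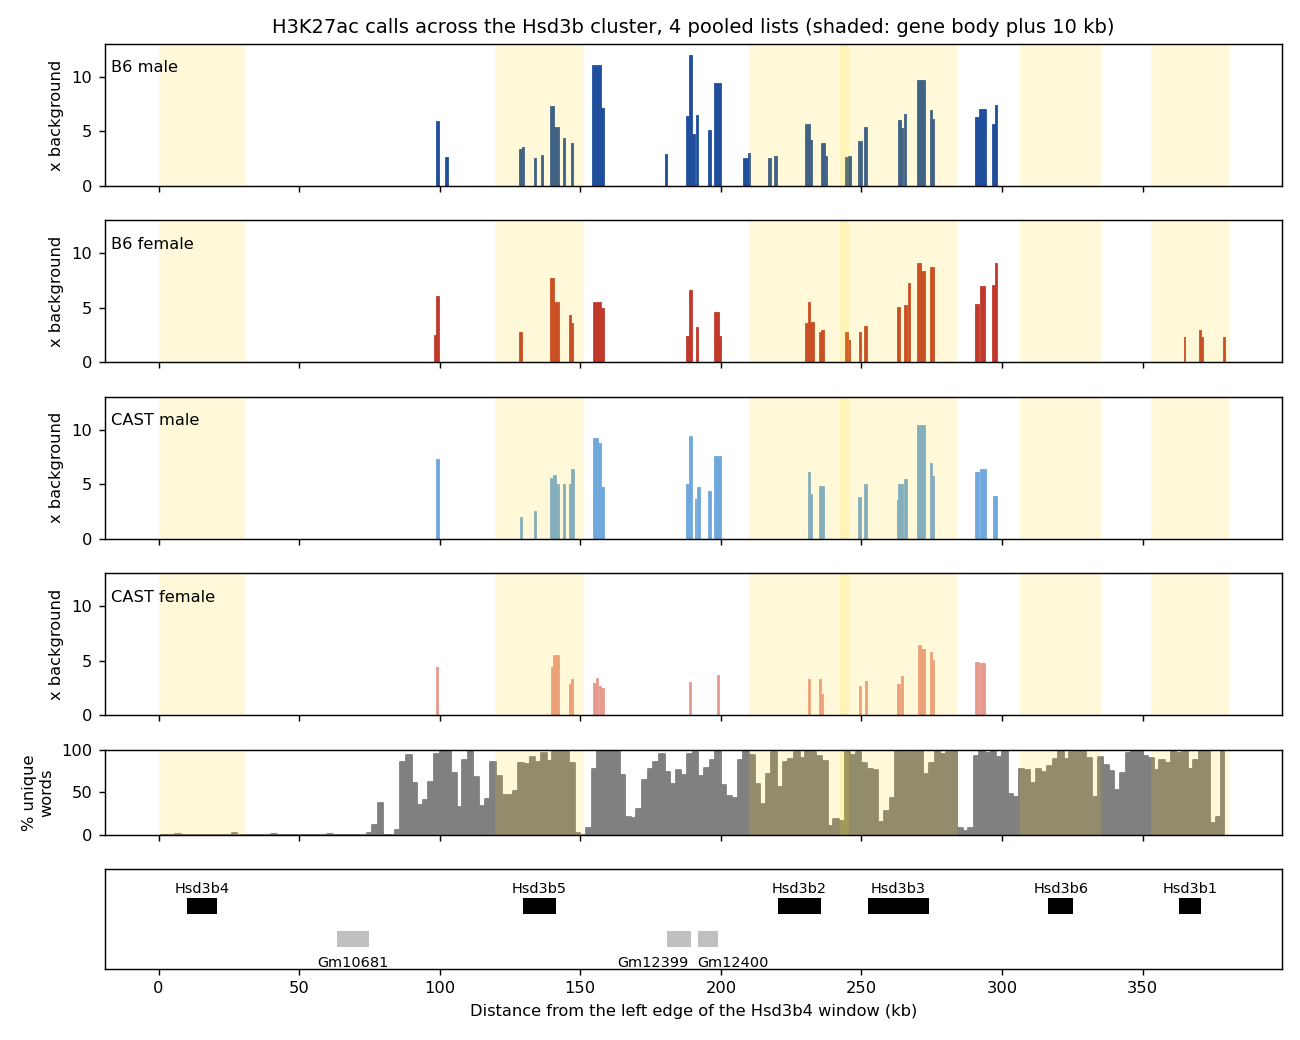
Peaks of each list across the cluster, against the distance in kb from the left edge of the Hsd3b4 window. The height of a bar is the number of fragments at its summit over the genome-wide background of the list, the grey track is the percentage of 50-base words that occur once in mm9 (bins of 2 kb), shading marks the 6 windows, black bars are members and grey bars are other gene models and pseudogenes. The tallest bars of both male lists include those between the Hsd3b5 and Hsd3b2 windows, and no bar lies over Hsd3b4 or Hsd3b6.

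Hsd3b6 carried no peak in any list, in a window whose words were 83.5% unique. No call was made in any list from chr3:98591325, at the last element beyond Hsd3b3, to chr3:98657976, inside Hsd3b1. The level at a peak is given as the number of sequenced fragments that cover its summit, pooled over the 5 livers. The weakest peak called anywhere in the cluster had 45 fragments at its summit in males and 38 in females of B6, and 34 and 31 in CAST. Coverage under the caller's limit is not reported in the lists, so a low level of the mark at Hsd3b6 was not detectable here.

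Hsd3b1 was called in B6 females alone, with 4 peaks covering 1507 bp and 0 bp in the other 3 lists. The strongest lay over an untranslated exon beside the start (chr3:98663324-98663621, 53 fragments at its summit, 95% interval 39.7 to 69.3, 42.3rd percentile of the list by score), 1 just upstream of the start (chr3:98663876-98664559, 42 fragments), 1 in an intron (chr3:98657976-98658253, 43 fragments) and another 8.38 kb upstream (chr3:98671974-98672220, 42 fragments). All 4 ranked in the lower 50% of the B6 female list, and 100% of the words in them were unique. The neighbour on that side is Hao2, a peroxisomal hydroxyacid oxidase gene, whose window overlaps that of Hsd3b1 and takes in the peak farthest upstream. Its covered bases were 472 bp in males and 2097 bp in females of B6, and 0 bp and 818 bp in CAST, so the female list was the higher one in both strains.

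**Figure D2:**
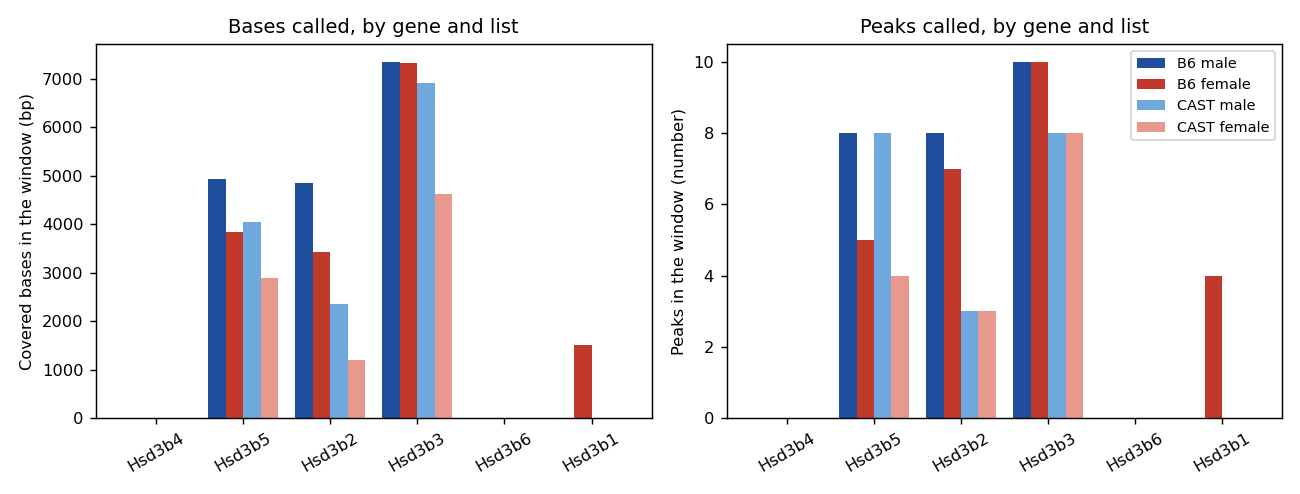
Bases covered by peaks (left, bp) and number of peaks (right) in the window of each member, in chromosome order, with 1 bar per pooled list and no replicates. Hsd3b3 had the most covered bases in every list, and Hsd3b4 and Hsd3b6 had no peak.

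The first comparison asked whether male and female livers differed over these windows. In B6 the members together had 16519 bp covered in males and 15388 bp in females, a ratio of 1.07. In CAST they had 13302 bp and 8710 bp, a ratio of 1.53. The median ratio over all protein-coding windows with at least 500 bp covered in either list was 1.03 in B6 and 1.08 in CAST. By gene, the ratio was 1.29 in B6 and 1.3997 in CAST for Hsd3b5, 1.41 and 1.95 for Hsd3b2, and 1.003 and 1.495 for Hsd3b3. The direction was the same in both strains for all 3, with Hsd3b3 nearly even in B6.

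In B6, 0 of 4 members with at least 500 bp were at least 1.5-fold higher in males, against 5.98% of 15931 windows, and 1 (Hsd3b1, with no bases in males) was at least 1.5-fold higher in females, against 4.73%. In CAST, 1 of 3 (Hsd3b2) was higher in males, against 9.41% of 16090 windows, and 0 of 3 were higher in females, against 2.6%. With 3 or 4 members tested, these counts cannot be told from such a background. The Hsd3b5 and Hsd3b2 ratios changed direction under some settings. In the upper 50% of each list by score, the Hsd3b5 ratio turned to 0.810 in B6 and 0.971 in CAST, whereas with peaks of at least 2-fold enrichment it was 1.139 and 1.297. Over the gene body alone the Hsd3b5 ratio rose to 1.74 in B6 and 1.64 in CAST, above 1.5-fold in both strains. With the same windows the Hsd3b2 ratio in B6 turned to 0.902. The Hsd3b2 ratio rose to 3.62 in B6 in the upper 50%, and to 3.02 in CAST with peaks of at least 2-fold enrichment or with lists of equal length.

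Between strains, CAST had fewer covered bases than B6 in the member windows, at 0.805 of the B6 value in males and 0.566 in females, beside medians of 1.01 and 0.969 over all windows. Of the 3 genes marked in every list, Hsd3b2 differed most. Its covered bases were 2.05-fold higher in B6 than CAST males and 2.84-fold higher in B6 than CAST females. Hsd3b3 was 1.06-fold and 1.59-fold higher in B6, and Hsd3b5 1.22-fold and 1.33-fold. In males, 1 of 3 members was at least 1.5-fold higher in B6 and 0 in CAST, against 5.7% and 11% of 16194 windows. In females, 3 of 4 (Hsd3b2, Hsd3b3 and Hsd3b1) were higher in B6 and 0 in CAST, against 11.3% and 10.5% of 16190 windows. In males the CAST to B6 ratio turned to 1.13 in the upper 50% of each list and was 0.875 with peaks of at least 2-fold enrichment. Summit coverage at Hsd3b2 was closer between the male lists. At the element inside the gene (chr3:98523210-98524625) it was 5.61 times the genome-wide background in B6 and 6.07 in CAST. At the start (chr3:98528096-98529915) it was 3.87 and 4.78, and in an intron (chr3:98525017-98525462) 4.08 and 3.99. In females it was 5.40 and 3.27 at the element and 2.89 and 3.21 at the start. Hsd3b2 regions called in B6 males and in no CAST list held 45 to 54 fragments in those males.

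Single regions were compared next. Of the 30 regions in the member windows, 10 were called in all 4 lists and 12 in 1 list only, against 40.4% and 32.4% of all regions. B6 had calls in all 30 and CAST in 16, against 76.2% and 81.1%. In B6, 8 regions (26.7%) were male-only and 7 (23.3%) female-only, against 17.4% and 17.5% of all B6 regions. In CAST, 5 of 16 (31.3%) were male-only and 0 female-only, against 21.5% and 14.1%. These counts moved with the rule for a shared region. When peaks had to overlap each other by 50%, B6 had 14 regions of either kind, and CAST had 11 male-only ones and 7 called in females alone. Within the upper 50% of each list there were 3 and 2 in B6, and over gene bodies without flanks 3 and 4 in B6 and 3 and 0 in CAST.

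At Hsd3b5, 4 of 9 B6 regions and 3 of 7 CAST regions were male-only, against the 17.4% and 21.5% over all regions. Hsd3b2 had the same B6 count, 4 of 9, and 1 of 3 in CAST, and Hsd3b3 had 0 of 9 and 1 of 6. A peak in an intron 7.095 kb downstream of the start (chr3:98427010-98427266) was called in males of both strains only, with 46 fragments in B6 and 44 in CAST, at the 25.7th and 24.8th percentiles of the lists by score. A second, 3.215 kb upstream (chr3:98437308-98437587), was likewise male-only in both strains, with 79 and 87 fragments, at the 15.7th and 46.8th percentiles. Over coding sequence near the 3′ end, the peak at chr3:98422602-98422946 was called in B6 males only, with 64 fragments, at the 57.5th percentile of the list by score. A region 5.26 kb upstream (chr3:98439322-98439671) was female-only in B6, with 80 fragments at the 59.5th percentile, but called in both sexes of CAST, with 88 in males and 46 in females. The region just past the 3′ end (chr3:98421487-98422312) was called in both B6 sexes, with 61 fragments in males and 51 in females, and in CAST only in males, with 34.

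The Hsd3b5 promoter itself did not follow this pattern. In an intron 1.12 kb inside the start (chr3:98432681-98433544), the summit held 133 fragments in males and 142 in females of B6 (95% intervals 111 to 158 and 120 to 167), and 97 and 73 in CAST. The region across the start (chr3:98433819-98435441) had 98 and 102 fragments in B6 and 102 and 92 in CAST. The male and female counts were close in B6 at both. After scaling for the background of each list and centring on all regions called in both sexes, the male to female ratio of summit coverage in the intron was 0.925 in B6 (95% interval 0.725 to 1.18) and 1.12 in CAST (0.821 to 1.54), and across the start it was 0.949 (0.712 to 1.27) and 0.938 (0.701 to 1.26). All 4 intervals include 1. They cover counting error only and leave out the spread between livers, and fragments copied by PCR are not independent.

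The Hsd3b2 and Hsd3b3 promoters differed in fragments at the summit. The highest-ranked call within 1 kb of a start had 71 fragments in males and 54 in females of B6 at Hsd3b2, and 85 and 54 in CAST. At Hsd3b3, with 8 annotated starts, it had 177 and 161 fragments in B6 and 184 and 96 in CAST. At Hsd3b3 these are different regions in males (intronic, below) and in females (chr3:98567688-98568872, 1.23 kb upstream), so they are not a sex comparison. Of the words within 1 kb of its outermost start 58.2% are unique, and in the intronic and upstream regions 99.6% and 100%. The authors' fold enrichment of these calls was higher at Hsd3b2 in males, with 2.56 against 2.07 in B6 and 3.48 against 2.95 in CAST. In females it was higher at Hsd3b3, with 3.19 against 2.48 in B6 and 3.41 against 3.09 in CAST. The broad intronic region of Hsd3b3 at chr3:98563003-98565737 had the most summit fragments in any member window, with 177 in males and 169 in females of B6, and 184 and 107 in CAST. By fold it was not the highest, at 2.07 in B6 males beside a median of 2.48 over the peaks of the member windows. Its sex ratio was 1.03 in B6 (95% interval 0.833 to 1.29) and 1.46 in CAST (1.14 to 1.86). At the element inside Hsd3b2 printed above (chr3:98523210-98524625), the counts were 103 and 101 in B6 and 108 and 55 in CAST, for a ratio of 1.01 in B6 (0.758 to 1.34) and 1.66 in CAST (1.19 to 2.34). The upstream region of Hsd3b3 was the other way round in B6, with 126 fragments in males and 161 in females, a ratio of 0.773 (0.608 to 0.982), and 122 and 96 in CAST, a ratio of 1.08 (0.816 to 1.42).

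**Figure D3:**
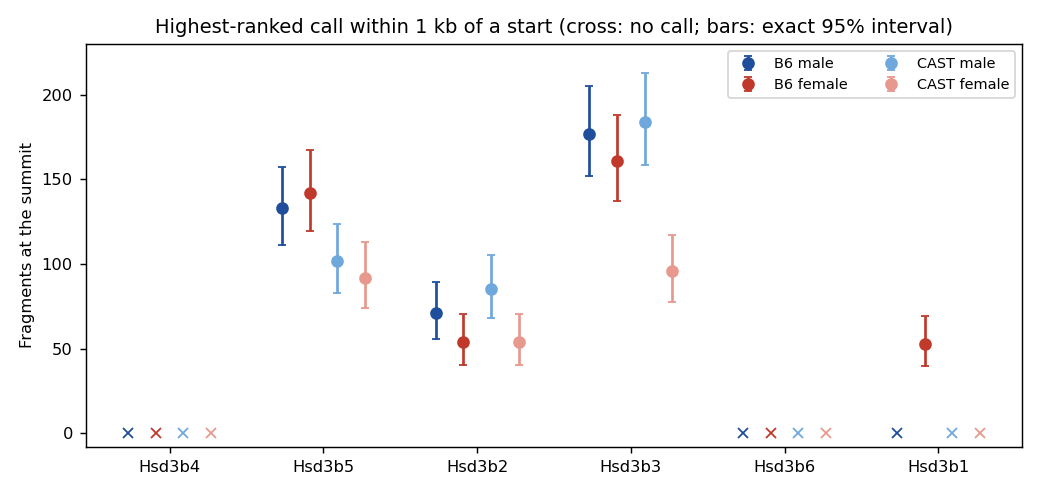
Fragments at the summit of the highest-ranked peak within 1 kb of any annotated start of each member, with exact 95% Poisson intervals for counting error and a cross at 0 where no peak was called. Hsd3b5, Hsd3b2 and Hsd3b3 have a call in all 4 lists, and Hsd3b1 in B6 females only.

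Among regions of the member windows called in both sexes, summit coverage was at least 1.5-fold higher in males at 1 of 15 in B6 and 3 of 11 in CAST, against 2.32% of 59077 and 1.84% of 61994 such regions genome-wide. The B6 region lay beside the 3′ end of Hsd3b3 (chr3:98544211-98545010), with a ratio of 1.597. None was at least 1.5-fold higher in females, against 2.18% and 3.58%. Without centring, the CAST count for males was 5 in place of 3. The median ratio over the member windows was 1.11 in B6 and 1.33 in CAST.

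Among regions called in both sexes, the largest ratios of summit coverage in the cluster lay outside the 10 kb flanks. They were in the 58.9 kb between the Hsd3b5 and Hsd3b2 windows, which was examined after its values had been seen. Covered bases there were 10923 bp in males and 7025 bp in females of B6, and 8330 bp and 3063 bp in CAST. Of the 10 regions called in B6, 4 were male-only and 0 female-only, and of the 8 called in CAST, 4 were male-only and 0 female-only. The shares over all regions were 17.4% and 17.5% in B6 and 21.5% and 14.1% in CAST, and since the stretch was picked for its values the counts are a description. All regions there called in both sexes had higher summit coverage in males. Genome-wide the share was 49.99% of 59077 such regions in B6 and 49.98% of 61994 in CAST, which the centring on the median sets. The ratio was at least 1.5 at 5 of 6 in B6, against 2.32% genome-wide, with a range of 1.401 to 2.67. In CAST it was at least 1.5 at 4 of 4, against 1.84%, with a range of 1.73 to 2.79.

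Of the 4 regions there called in all 4 lists, 3 stood highest in both male lists. The element 14.7 kb upstream of Hsd3b5 (chr3:98447498-98450299, intergenic) had 202 fragments at its summit in males and 102 in females of B6. In CAST its summit held 9.11 times the genome-wide background in males and 3.33 times in females. Its male to female ratio was 1.96 in B6 (95% interval 1.53 to 2.51) and 2.45 in CAST (1.80 to 3.38). In B6 the male summit lay at chr3:98449117 and the female summit at chr3:98450108, so the B6 ratio compares different positions within the region. The bases printed above surround the male summit and do not reach the female one. The region at the start of the pseudogene Gm12399 (chr3:98481883-98482710) had 219 and 123 fragments in males and females of B6 and 165 and 50 in CAST, and ratios of 1.76 (1.404 to 2.21) and 2.79 (2.02 to 3.91). The region at the start of the pseudogene Gm12400 (chr3:98490817-98493217) had 172 and 84 fragments in B6 and 134 and 60 in CAST, and ratios of 2.02 (1.55 to 2.66) and 1.89 (1.38 to 2.61). In each case both male lists stood above both female lists. An intronic region of Gm12399 (chr3:98480920-98481687) had the largest B6 ratio of the cluster, 2.67 (1.86 to 3.88), with 116 fragments in males and 43 in females, and in CAST was called in males only, with 87. A region over an exon of Gm12400 (chr3:98484485-98485572) had 117 and 59 fragments in B6, a ratio of 1.96 (1.42 to 2.73), and was likewise called only in males of CAST, with 82.

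**Figure D4:**
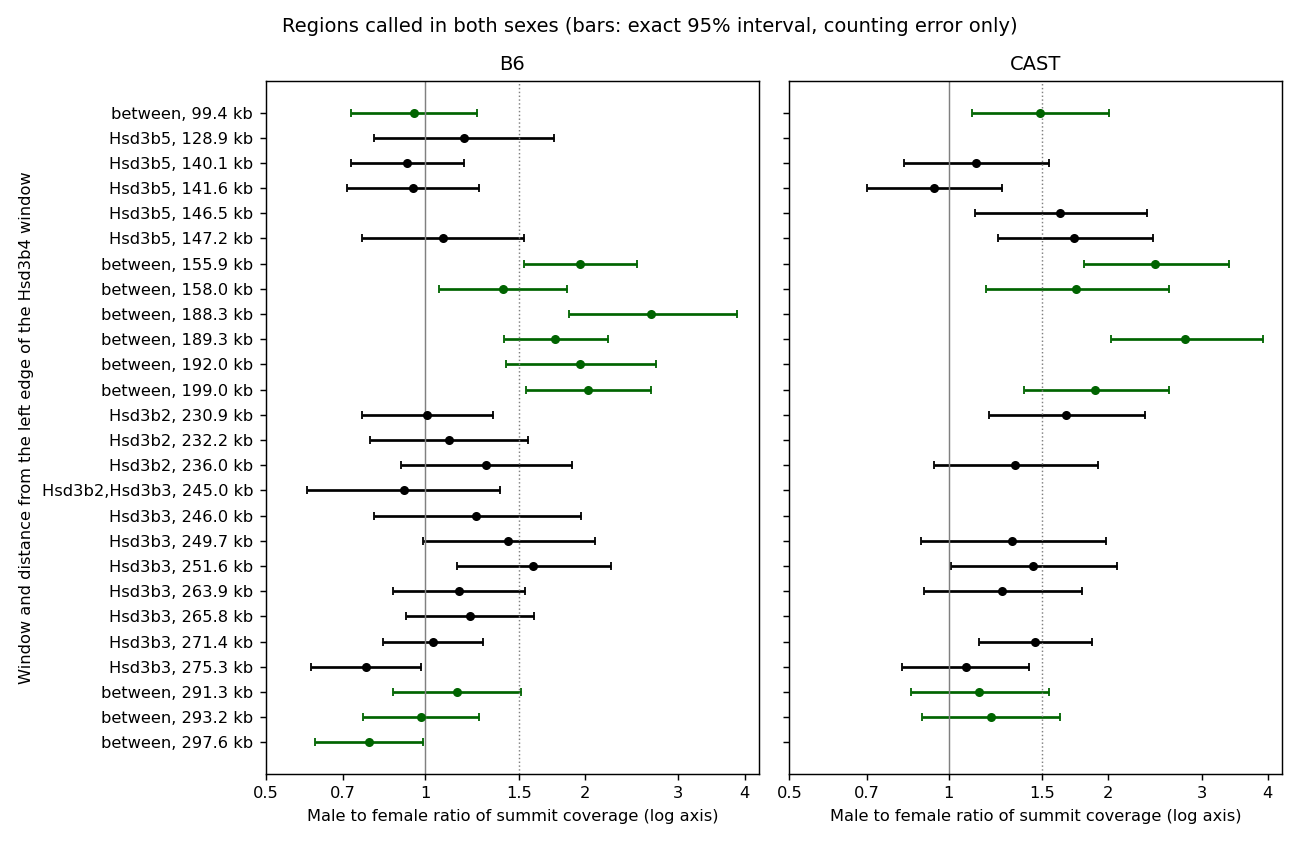
Male to female ratio of summit coverage, on a log axis, for each region called in both sexes of B6 (left) or CAST (right), labelled by window and by distance in kb from the left edge of the Hsd3b4 window. Bars are exact 95% intervals for counting error, the dotted line marks 1.5, and green points lie between the windows. Between the Hsd3b5 and Hsd3b2 windows, all 6 points of B6 and all 4 of CAST lie above 1, against 49.99% and 49.98% of such regions genome-wide.

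Both pseudogenes carry sequence of the family. The exons of Gm12400 matched the Hsd3b5 coding sequence best, at 85.5% identity over 959 bases, and those of Gm12399 matched Hsd3b4 and Gm10681 at 80.3% over 309 bases. Upstream of their starts, the longer match of both was to the 500 bases before Hsd3b4, at 87.8% over 262 bases for Gm12399 and 88.4% over 207 bases for Gm12400. The match to the 500 bases before Hsd3b5 was 87.5% over 216 bases and 89.3% over 169 bases. The 200 bases around their B6 male summits (chr3:98482035-98482234 and chr3:98491930-98492129, plus strand) are shown because these marked stretches share sequence; capitals mark the longest run they share, 50 bases. Despite that, 98% of the words starting in each window occur once in mm9, and neither window holds any of the 7 motifs.
Gm12399 start: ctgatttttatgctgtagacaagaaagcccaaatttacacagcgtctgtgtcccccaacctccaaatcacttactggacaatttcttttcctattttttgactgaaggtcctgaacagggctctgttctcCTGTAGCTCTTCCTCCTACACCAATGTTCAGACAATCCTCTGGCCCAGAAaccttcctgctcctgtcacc
Gm12400 start: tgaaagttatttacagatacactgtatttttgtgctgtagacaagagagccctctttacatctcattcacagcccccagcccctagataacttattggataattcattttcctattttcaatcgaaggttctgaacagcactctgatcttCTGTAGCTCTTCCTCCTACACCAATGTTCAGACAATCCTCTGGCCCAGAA

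At none of these 3 regions was the authors' fold enrichment higher in B6 males by as much as summit coverage was. At the element upstream of Hsd3b5 it was 3.39 in both B6 lists, although the summit held 11.001 times the genome-wide background in males and 5.45 times in females. The local background that the caller divided by was 3.21 times the genome-wide value in males and 1.57 times in females. At the start of Gm12399 the fold was 4.39 in B6 males and 5.28 in B6 females, with summits at 11.9 and 6.58 times the genome-wide background. At the start of Gm12400 the fold was 4.95 and 4.31, with summits at 9.37 and 4.49 times that background. In CAST, whose female local background was at the genome-wide value at both, the fold in males and females was 4.003 and 3.1972 at the upstream element and 4.997 and 2.86 at Gm12399. A high local background also stood under the broad region of Hsd3b3, where 177 fragments in B6 males, 9.64 times the genome-wide background, gave a fold of 2.07.

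Elsewhere between the windows, ratios were nearer to 1. Beyond Hsd3b3, the regions 17.3 kb and 19.2 kb upstream of its start (chr3:98583708-98584958 and chr3:98585296-98587173) were called in all 4 lists, with ratios between 0.980 and 1.1996. Another, 23.5 kb upstream (chr3:98589867-98591325), had 134 fragments in males and 169 in females of B6, a ratio of 0.783 (0.620 to 0.989), and in CAST was called in males only, with 68. Between Hsd3b4 and Hsd3b5, where 27.99% of words were unique, the region at chr3:98391899-98392842 had 108 and 112 fragments in males and females of B6 and 128 and 73 in CAST, with ratios of 0.953 (0.725 to 1.25) and 1.48 (1.104 to 2.01).

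The other genes of steroid metabolism gave a frame. Of 29 on the list, 27 were found in the annotation. In B6, 25 had at least 500 bp in either sex, and 1 was at least 1.5-fold higher in males (Srd5a2, a steroid 5alpha-reductase, 3568 and 2137 bp) and 2 in females (Cyp19a1, aromatase, and Nr5a1, a steroidogenic transcription factor), against 5.98% and 4.73% of all windows. In CAST, 24 had at least 500 bp, and 4 were higher in males (Srd5a2, Cyp21a1, Star and Nr5a1) and 0 in females, against 9.41% and 2.6%. Their median ratio was 1.02 in B6 and 1.09 in CAST, beside 1.03 and 1.08 over all windows. The genes with covered bases nearest to Hsd3b5 over the 4 lists, by distance of log2(bases + 200), were Ctnnb1, A630091E08Rik and Dpysl3, and those nearest to Hsd3b2 were Ift74, Myo16 and Izumo1.

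The neighbours on the far side, Phgdh, a serine synthesis gene, and Zfp697, had male to female ratios between 1.0002 and 1.04 in both strains. Beyond Hao2, Wars2, a mitochondrial tryptophanyl-tRNA synthetase gene, had ratios of 1.097 in B6 and 1.49 in CAST. As a check of the tissue, 5 of 6 hepatocyte markers had a promoter peak in every list, while of 5 adrenal and gonadal markers Cyp11a1, Cyp11b1 and Nr5a1 had none in any list, and 1 or 2 had one. Promoter peaks were also called at 3 of 3 endothelial markers in every list at 2 of 3 biliary markers, at 1 or 2 of 3 stellate markers and at 0 to 2 of 4 immune markers. Their part in the results was not tested.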

How the data were processed

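H3K27ac ChIP-seq was performed by the authors on 5 livers per group. As the study describes it, unique reads were mapped with Bowtie2 to mm9 (CAST reads by way of a genome built for that strain), replicates were combined, and peaks were called with MACS2 over input. In each deposited list the authors give a score, a fold enrichment (a ratio), the −log10 p-value and the −log10 q-value. The lowest −log10 q-value was 1.30, a q-value limit of 0.05.

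Here the fragments covering each summit and the background were solved from the fold and the p-value. Of the solutions, at least 99.9% were whole numbers (within 0.05). The genome-wide background, shared by 16.4 to 18.8% of peaks, was 18.4 fragments for males and 18.7 for females of B6, and 17.8 and 16.8 for CAST, which stands for depth. Higher backgrounds were whole multiples (within 0.1 of a step) of 1 step per list (0.0107 to 0.0115 fragments) in at least 99.996% of the 22639 to 25203 peaks per list examined. Whether the input or the ChIP fragments themselves supplied them is not settled by the lists, and in the latter case the mark raises its own background. Sex ratios of summit coverage were centred on the median of all regions called in both sexes, a shift of 1.03-fold in B6 and 1.12-fold in CAST. Each ratio used the highest summit of either list in a region, and the position of that summit can differ between lists.

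Peaks overlapping by at least 1 bp were merged into regions. No peak number was missing within the cluster in any list. Intervals are exact Poisson or conditional binomial ones (95%) on pooled fragments, without the spread between livers. Annotation was GENCODE vM1 on NCBIM37. Identities came from Biopython 1.88 and blastn 2.17.0, and methods were tested on simulated data. A region was called in a list where the list held a peak there, and a difference was counted from 1.5-fold up, with 1 list per group. Named were the members, their nearest protein-coding neighbours, the steroid genes past that fold, the closest patterns, promoter calls and sex-only or strain-only regions of the member windows with a call in the upper 50% of a list; other regions were named after their values were seen. Members and lists were chosen with earlier results of these data known. Alternatives were other flanks, stricter lists, lists of equal length and other rules for merging peaks.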

Additional observations from a re-analysis of the deposited data

How the results depend on the processing

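No paired analysis was possible because each list pools the livers of a group, and leaving out a liver was impossible for the same reason. The lists give no coverage where no peak was called, so a missing call bounds the mark only by the caller's limit. Depth differed little, with backgrounds from 16.8 to 18.7 fragments.

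The direction of the male to female ratio of covered bases over all members held under the 6 alternatives planned for it in both strains. The CAST to B6 ratio in males turned from 0.805 to 1.13 in the upper 50% of each list. Among members, the upper 50% turned the Hsd3b5 ratio to 0.810 in B6 and 0.971 in CAST. The gene body without flanks turned the Hsd3b2 ratio in B6 to 0.902. Without flanks the Hsd3b5 ratio rose to 1.74 in B6 and 1.64 in CAST, and the Hsd3b3 ratio in CAST to 1.66. In the upper 50% the Hsd3b3 ratio in CAST rose to 2.14. The cause of these shifts was not tested. The Hsd3b2 ratio rose to 3.62 in B6 in the upper 50%, and in CAST to 3.02 with lists of equal length or a minimum fold enrichment of 2.

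Counts of sex-only regions depended most on the settings. In B6 the 8 male-only and 7 female-only regions became 3 and 4 without flanks, 3 and 2 in the upper 50% of each list, and 14 and 14 under a reciprocal overlap of 50%. Merging peaks up to 500 bp apart left 4 female-only regions in B6. In CAST the 5 male-only regions became 3 without flanks, and with the 50% overlap there were 11 male-only and 7 female-only ones. Over the whole span, an alternative chosen after seeing the data, there were 13 male-only regions in B6 and 10 in CAST. Without centring, also chosen afterwards, 5 regions of the member windows in CAST were at least 1.5-fold higher in males, in place of 3, and the counts between the windows stayed within 1.5 times.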
